A study of Mus musculus with 20 samples.

Results

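The Hox cluster genes were followed through neural differentiation of mouse embryonic stem cells that were either WT or TKO. Members were all genes whose symbol is Hoxa, Hoxb, Hoxc or Hoxd followed by a number, which gave 39 genes of the 35975 in the summed gene table. All 39 are annotated as protein-coding, and 87 of their transcripts were in the deposited tables. Bulk RNA-seq was made from ES-E14TG2a (E14), an established mouse embryonic stem cell line, in 20 libraries: WT and TKO, each at day 0 (D0), D2, D4, D6 and D8 of differentiation to neural progenitor cells (NPC), with 2 biological replicates per group. All cells were grown feeder-free in serum with leukemia inhibitory factor before differentiation, then plated on laminin in N2B27, a serum-free medium, to which the stated recipe adds no retinoic acid. The labels do not spell out TKO and do not say whether it is 1 clone. They call the replicates biological but do not say how the cultures were separated, so p-values measure the spread between these libraries.

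Hox genes encode homeodomain transcription factors that give cells their position along the head-to-tail axis. They lie in 4 clusters, named A to D, and genes with the same paralog number descend from 1 ancestral gene. Low-numbered paralogs are known for early, anterior expression that reaches the hindbrain, middle numbers for the posterior hindbrain and cervical to thoracic spinal cord, and high numbers for the caudal trunk, limbs and genital region. Retinoic acid switches on the low-numbered end of the clusters, Cdx factors act on the middle, and Polycomb complexes keep the clusters silent in stem cells. Hox proteins bind DNA together with Pbx and Meis partners.

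In the files' build (GRCm38), cluster A lies on chromosome 6 on the minus strand with 11 genes, and cluster B spans chr11:96194316-96368256 on the plus strand with 10 genes. Cluster C spans chr15:102921103-103036852 with 9 genes and cluster D spans chr2:74668310-74765142 with 9 genes, both on the plus strand. Of the 39 genes, 31 had enough counts to be tested, and 8 did not pass the low-count filter (Hoxa6, Hoxa9, Hoxb6, Hoxc8, Hoxc10, Hoxc11, Hoxd10 and Hoxd12). Weakly expressed members passed that filter through the groups in which they are high, so counts over the 31 describe the genes and are not evidence on their own. Hoxd3 shared 61.1% of its 31-base words with other annotated genes, Hoxd4 49.1% and Hoxa2 13.7%, chiefly with read-through genes that join neighbouring Hox genes. The other 36 members shared under 10%. Words were matched on the transcript strand only, so overlap with antisense genes is not counted.

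Libraries held 25753965 to 37711584 counts on matched genes, of which Hox genes took 0.000876% to 0.0235%. Levels are given as CPM (counts scaled to the size of the library) when groups are compared and as TPM (scaled to transcript length as well) when genes are compared with each other. Dnmt1, the maintenance DNA methyltransferase, was read first: it stood at 293 to 484 CPM in the 10 WT libraries and 74.8 to 96.7 CPM in the 10 TKO libraries. Dnmt3a was lower in TKO at all 5 days and Dnmt3b at D0 to D6, with Dnmt3b higher at D8 (log2 fold change 0.92, adjusted p = 3.07e-06). The 2 WT D0 libraries stood farther apart than any other pair, with a chi-square of 27.7 per degree of freedom against 2.93 to 10.7 in the other groups. Of 8 neural progenitor markers, 2 were under 1 CPM in both libraries at D0 and at D2 in each genotype, with Fabp7 at 0 in TKO at D0, and 0 were under 1 CPM in both libraries at D4, D6 or D8. The 8 summed to 1915 to 1930 CPM in WT and 1524 to 1605 CPM in TKO at D6. In bulk RNA, fewer cells of a type and less RNA per cell cannot be told apart.

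Promoter sequences show what the members that moved in opposite directions look like at their start sites. RefSeq promoter windows (GRCm38.p6, 250 bases before to 50 bases after each start) were matched by symbol for 22 of the 39 members, in 24 records. Hoxa2 and Hoxb1 stand for the genes that were lower in TKO, and Hoxb8 and Hoxd13 for those that were higher. The 250 bases before each start are printed 5′ to 3′ on the gene's strand, with every CpG, the site of DNA methylation, in capitals. Hoxa2 lies at chr6:52164832-52165081 (minus strand), Hoxb1 at chr11:96365508-96365757 (plus strand), Hoxb8 at chr11:96281655-96281904 (plus strand) and Hoxd13 at chr2:74667975-74668224 (plus strand).
Hoxa2: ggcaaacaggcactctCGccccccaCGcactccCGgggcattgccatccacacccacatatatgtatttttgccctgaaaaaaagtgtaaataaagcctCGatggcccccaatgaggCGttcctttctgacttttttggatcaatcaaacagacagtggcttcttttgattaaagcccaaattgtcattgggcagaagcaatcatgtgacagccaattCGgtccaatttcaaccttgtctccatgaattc
Hoxb1: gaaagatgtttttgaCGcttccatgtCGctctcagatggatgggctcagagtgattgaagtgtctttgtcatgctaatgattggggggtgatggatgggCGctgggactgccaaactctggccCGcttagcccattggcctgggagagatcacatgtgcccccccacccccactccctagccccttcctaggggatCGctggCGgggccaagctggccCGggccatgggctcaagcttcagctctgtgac
Hoxb8: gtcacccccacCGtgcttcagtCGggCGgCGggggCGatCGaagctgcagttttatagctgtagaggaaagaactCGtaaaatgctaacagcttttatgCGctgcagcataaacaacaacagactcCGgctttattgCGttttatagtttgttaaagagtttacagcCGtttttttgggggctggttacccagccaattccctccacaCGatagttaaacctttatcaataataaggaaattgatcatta
Hoxd13: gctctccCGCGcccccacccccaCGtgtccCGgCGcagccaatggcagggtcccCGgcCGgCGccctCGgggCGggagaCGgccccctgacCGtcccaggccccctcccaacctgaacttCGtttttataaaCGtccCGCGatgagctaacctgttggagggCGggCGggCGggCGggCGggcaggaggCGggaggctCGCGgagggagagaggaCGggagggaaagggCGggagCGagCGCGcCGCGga

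The printed stretches hold 6 CpGs in Hoxa2, 7 in Hoxb1, 12 in Hoxb8 and 31 in Hoxd13. Over the whole 300-base windows, all 24 Hox records hold at least 1 CpG, with a median of 14.5, and 94.6% of the 32851 RefSeq promoter windows hold 1, with a median of 7. Of the members lower in TKO at D6, 3 have a record: Hoxa2 with 9 CpGs, Hoxb1 with 10 and Hoxa3 with 20. Records of members higher in TKO at D6 run from 4 in Hoxd4 to 45 in Hoxa13. The PBX-HOX word TGATNNAT, searched on both strands, was in 4 of the 24 Hox windows (16.7%) and in 8.85% of all windows of the same length. Those of Hoxb1, Hoxa2 and Hoxb8 are shown on the gene's strand, with the match in capitals.
Hoxb1: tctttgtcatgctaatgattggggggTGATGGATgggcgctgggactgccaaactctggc
Hoxa2: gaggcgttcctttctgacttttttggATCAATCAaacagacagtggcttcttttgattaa
Hoxb8: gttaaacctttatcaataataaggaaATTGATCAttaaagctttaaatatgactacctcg

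The Hoxb1 match begins 162 bases before the start, the Hoxa2 match 111 bases and the Hoxb8 match 11 bases, and the fourth is in a Hoxd11 window. The word TTTATG, bound by Cdx factors, was in 5 of 24 Hox windows (20.8%) and 11.9% of all windows, and Hoxb8 is 1 of the 5. On both strands, the retinoic acid response words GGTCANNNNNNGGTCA and GGTCANNNGGTCA were in 0 of the 24 windows and in 0.100% and 0.0670% of all windows. Words this rare are seldom met in 24 windows, so the 0 does not set the Hox windows apart. A match describes these letters and is not a bound site.

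Hox RNA was low in stem cells and rose between D2 and D4 in both genotypes. Summed over the 39 genes, WT libraries held 11.8 and 20.6 TPM at D0, 6.57 and 7.04 at D2, 131 and 147 at D4, 223 and 190 at D6 and 178 and 172 at D8. TKO libraries held 16.6 and 16.4 TPM at D0, 13.2 and 14.1 at D2, 76.9 and 81.2 at D4, 92.1 and 108 at D6 and 23.3 and 22.9 at D8. At D4, D6 and D8 both TKO libraries lay below both WT libraries. Makeup differed as well as amount. Paralogs 1 to 3 made up 96.3% and 97.4% of Hox TPM in the WT D6 libraries and 44.5% and 45.4% in the TKO D6 libraries.

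**Figure D1:**
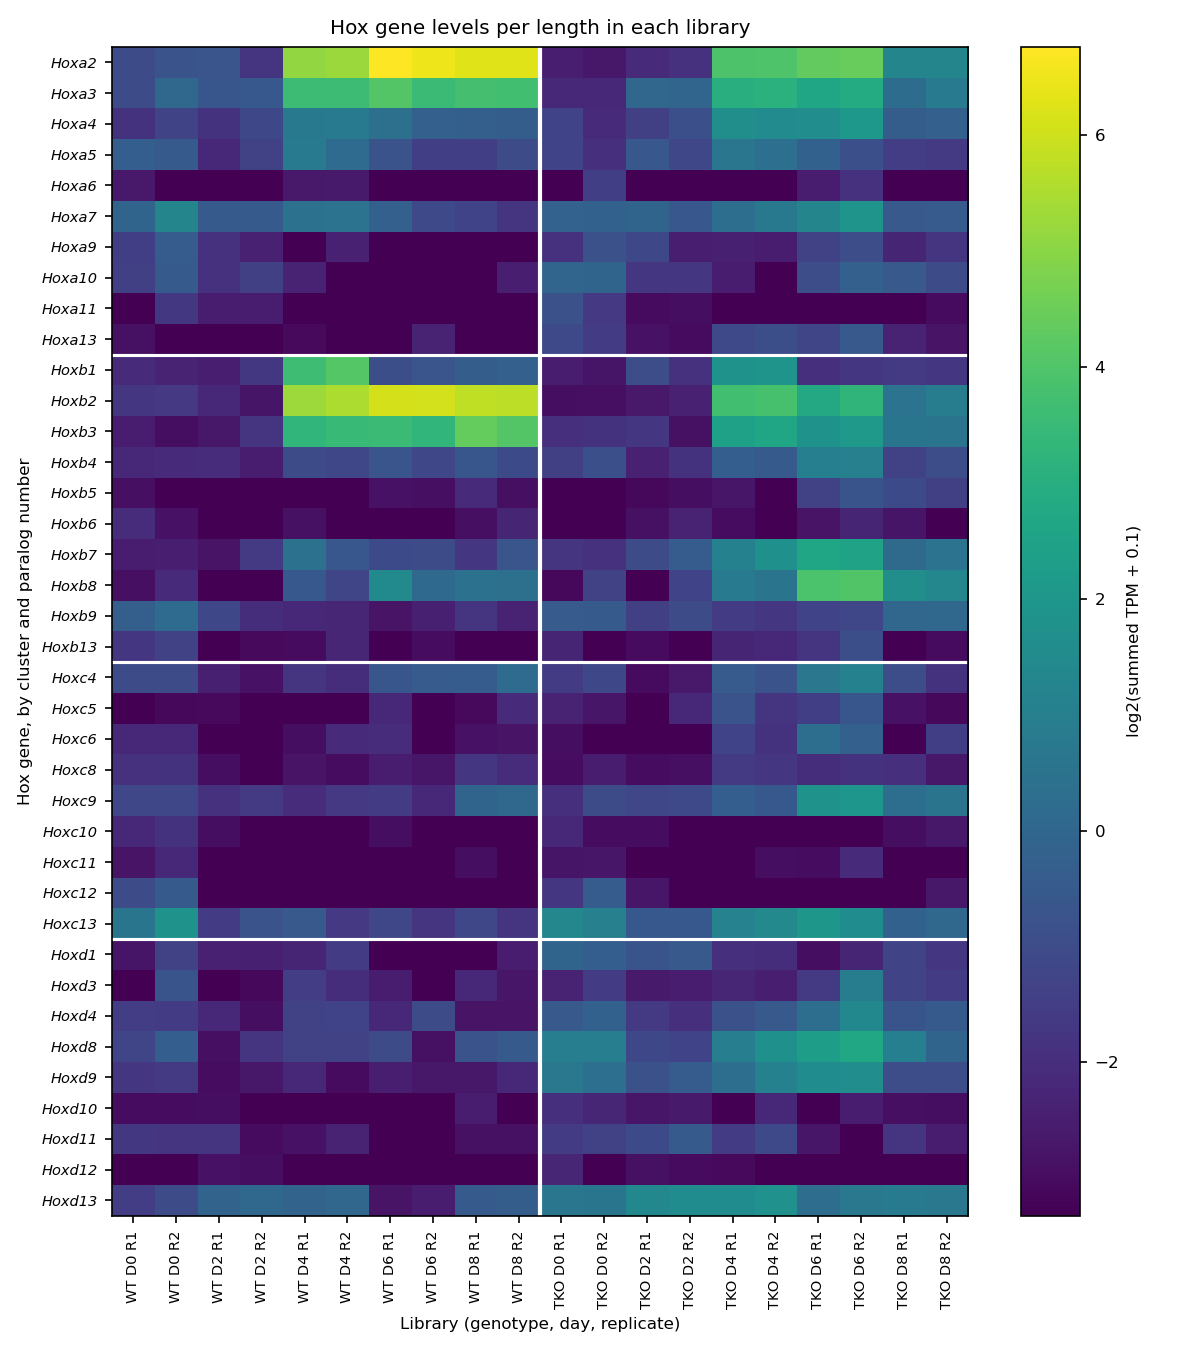
Level of 38 Hox genes in each of the 20 libraries, as log2(summed TPM + 0.1), with genes in rows by cluster and paralog number and libraries in columns by genotype, day and replicate. Hoxa2, Hoxa3, Hoxb2 and Hoxb3 are brightest in the WT libraries from D4 on, and Hoxb7, Hoxb8, Hoxc9, Hoxd8 and Hoxd9 in the TKO libraries at D6.

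The 3 paralog classes followed different courses. Paralogs 1 to 3 (8 genes) reached 214 and 185 TPM in WT at D6 against 41.0 and 49.1 in TKO, and at D8 170 and 164 against 7.90 and 8.64. Paralogs 4 to 8 (15 genes) ran the other way, with 7.45 and 4.28 TPM in WT and 38.2 and 45.1 in TKO at D6. Paralogs 9 to 13 (16 genes) stood at 0.784 and 0.652 TPM in WT and 12.9 and 14 in TKO at D6. This class was already present at D0, at 4.51 and 8.55 TPM in WT and 9.14 and 8.53 in TKO. By D4 it was at 1.99 and 1.78 TPM in WT and 8.03 and 9.90 in TKO. At D4, D6 and D8 the WT and TKO libraries of all 3 classes did not overlap. By cluster, WT Hox RNA at D6 was almost all from A (136 and 110 TPM) and B (84.0 and 78.9 TPM). Cluster C gave 1.5 and 1.01 TPM in those WT libraries, against 10.4 and 10.4 TPM in the TKO libraries of that day. Cluster D gave 0.732 and 0.565 TPM in WT and 10.3 and 15.5 TPM in TKO.

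**Figure D2:**
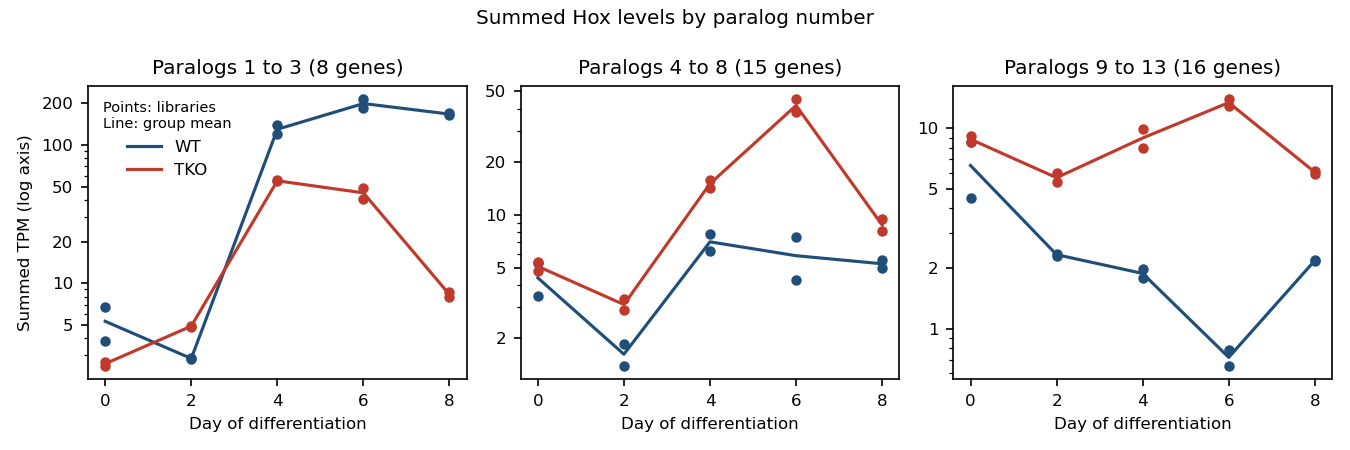
Summed TPM of paralogs 1 to 3, 4 to 8 and 9 to 13 by day, on a log axis that differs between panels; points are libraries and lines join group means. WT is above TKO for paralogs 1 to 3 from D4, and TKO is above WT for the other two classes at D2, D4, D6 and D8.

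In WT cells the rise from D2 to D4 was led by the anterior members. Of the 31 genes tested, 14 were higher at D4 than at D2 and 2 were lower, beside 31.8% of all genes higher and 30.1% lower. The 14 took in 7 of the 8 paralogs 1 to 3 and 7 of paralogs 4 to 8, and the 2 that were lower were Hoxa10 and Hoxb9. Both of these lost the call under other settings, Hoxb9 under 18 of them. Of the 14 that were higher, 4 also lost the call under at least 1 other setting: Hoxb4, Hoxd3, Hoxd4 and Hoxd8. Hoxd3 lost it with protein-coding transcripts alone, among others. Comparisons between neighbouring days were added after the data had been seen.

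Hoxb1, of paralog group 1, whose genes are the first Hox genes to come on in the embryo, rose and fell within 4 days. This gene, which marks the fourth rhombomere of the hindbrain, was at 0.116 and 0.320 CPM in the WT D2 libraries, 15.0 and 21.4 at D4, 0.485 and 0.596 at D6 and 0.654 and 0.719 at D8. Both D4 libraries stood above all other WT libraries, with a log2 change from D2 to D4 of 6.28 with SE 0.32 (adjusted p = 8.55e-12) and from D4 to D6 of -5.07 with SE 0.28 (adjusted p = 1.09e-10). Hoxd1, of the same paralog group, was at 0.357 CPM or less in every WT library.

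Hoxa2, Hoxb2, Hoxa3 and Hoxb3 came on at D4 and stayed. Hoxa2, the patterning gene of the second rhombomere and second pharyngeal arch, went from 0.658 and 0.233 CPM at D2 to 37.3 and 41.0 at D4, 100 and 85.7 at D6 and 61.1 and 61.2 at D8. Hoxb2, a target of Egr2 and of Hoxb1 in the hindbrain, went from 0.155 and 0.0582 CPM at D2 to 40.6 and 47.2 at D4, 60.1 and 61.3 at D6 and 43.1 and 41.3 at D8. On the per-length scale these were the 2 highest Hox genes at D6, at 108 and 90.0 TPM and 68.3 and 66.6 TPM, and the 2 genes' libraries did not overlap. Hoxa3 followed at 16.7 and 11.5 TPM and Hoxb3 at 11.6 and 9.89 TPM, which overlapped. Of the members that reached 1 CPM in WT, Hoxb3 was the one with its highest mean at D8 (27.5 and 21.9 CPM), but its log2 rise from D6 of 0.44 with SE 0.13 (adjusted p = 0.00723) was lost when WT D6 replicate 2 or WT D8 replicate 1 was left out and with length-scaled counts (adjusted p up to 0.177). Hoxa2 and Hoxb2 fell over the same step, by 0.61 and 0.52 on the log2 scale. Hoxd3, the paralog 3 gene of cluster D, was at 0.444 and 0.245 CPM at D4 and 0.0909 and 0 at D6 in WT.

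Beyond paralog 3 the WT cells expressed little. A group mean of 1 CPM in WT was reached by 4 of the 15 paralogs 4 to 8: Hoxa7 at D0, Hoxa4 and Hoxa5 at D4, and Hoxb8 at D6. The same level was reached by 3 of the 16 paralogs 9 to 13: Hoxb9 and Hoxc13 at D0, and Hoxd13 at D2. Hoxc13, a hair and nail gene of the caudal end of cluster C, was at 2.49 and 5.91 CPM in the WT D0 libraries and 0.398 and 0.210 CPM at D8. Between D0 and D8, 7 tested genes rose and 13 fell in WT, beside 37.8% of all genes that rose and 76.8% called in either direction. The share of members that rose, and the share called in either direction, were below those of all genes. The share that fell was near that of all genes. The 7 were Hoxa2, Hoxa3, Hoxb1, Hoxb2, Hoxb3, Hoxb4 and Hoxb8, and 8 of the 13 that fell were paralogs 9 to 13. The number that fell was 8 without WT D8 replicate 1 and 5 when only the compared groups were fitted.

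From D6 to D8 in WT, 4 of the 31 were higher (Hoxb3, Hoxc9, Hoxd8 and Hoxd13) and 4 lower (Hoxa2, Hoxb2 and Hoxd4 among them), beside 26.6% and 30.4% of all genes. The number higher was 2 without WT D6 replicate 2. From D4 to D6, 4 were higher and 11 lower in WT, beside 27.3% and 26.0% of all genes. The number lower fell to 6 without WT D4 replicate 1 and to 5 without WT D6 replicate 2. Among the 11 were Hoxb1, Hoxd1 and Hoxd3.

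**Figure D3:**
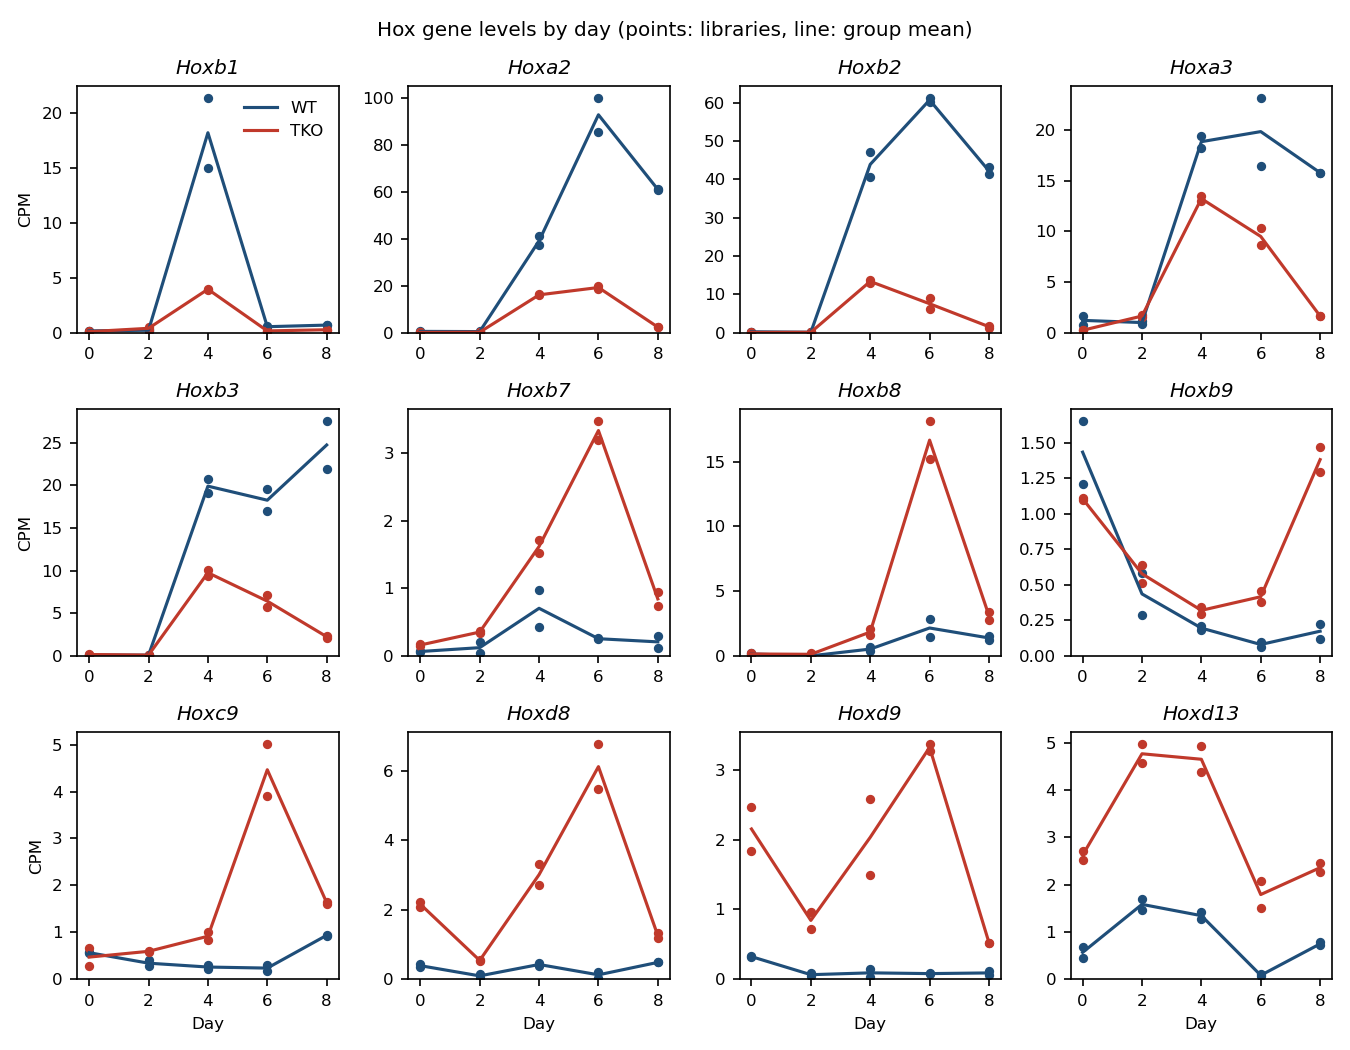
CPM by day of 12 Hox genes, with a linear axis of its own for each gene; points are libraries, lines join group means, WT is blue and TKO is red. Hoxb1, Hoxa2, Hoxb2, Hoxa3 and Hoxb3 are lower in TKO from D4, while Hoxb7, Hoxb8, Hoxc9, Hoxd8 and Hoxd9 peak in TKO at D6.

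In stem cells before differentiation, the members called higher in TKO were mostly of cluster D and those called lower were of cluster A. At D0, 7 of the 31 tested genes were higher and 4 lower in TKO, beside 19.4% and 19.9% of all genes. The share of members called higher was thus near that of all genes, and the share called lower was below it. Of the 7 higher, 5 are in cluster D, and all 4 that were lower are in cluster A. The number higher was 4 without TKO D0 replicate 2. Leaving out WT D0 replicate 1 gave 5 higher and 4 lower, and leaving out WT D0 replicate 2 gave 6 and 3. Over all 39 members, both TKO libraries were above both WT libraries in 13 and below them in 12, and 65.2% of all tested genes had libraries that did not overlap. Hoxd9, at 0.319 and 0.325 CPM in WT and 2.47 and 1.83 in TKO, had a log2 fold change of 2.73 with SE 0.39 (adjusted p = 2.90e-05). Hoxd8, at 0.351 and 0.422 CPM in WT and 2.23 and 2.09 in TKO, had a log2 fold change of 2.47 with SE 0.35 (adjusted p = 2.29e-05). Hoxd13, the limb and genital gene at the far end of the cluster, was at 0.446 and 0.682 CPM in WT and 2.72 and 2.53 in TKO (a log2 difference of 2.21 with SE 0.25, adjusted p = 2.07e-06). For these 3 genes both TKO libraries lay above both WT libraries.

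Hoxd1 also differed at D0, with 0.0638 and 0.357 CPM in WT and 1.15 and 0.915 in TKO (a log2 difference of 2.28 with SE 0.60, adjusted p = 0.00641), though its call was lost without WT D0 replicate 1 (adjusted p = 0.0786). Among the genes lower in TKO stem cells was Hoxa3, at 0.765 and 1.66 CPM in WT and 0.244 and 0.220 in TKO (a log2 difference of -2.36 with SE 0.44, adjusted p = 3.46e-04). Hoxa2 and Hoxa5 were lower too, and Hoxa5 lost its call under 5 alternatives, DESeq2 among them. Endoderm markers moved in the same comparison: all 9 were higher in TKO at D0, and their summed level was 11.3 to 13.4 CPM in WT, where Ttr and Afp were at 0, and 231 to 256 CPM in TKO. Trophoblast markers were higher for 2 of 8 and lower for 2, with sums of 146 to 155 CPM in WT and 34.7 to 35.1 in TKO. Mesenchyme markers were higher for 2 of 7 tested and lower for 3, with sums of 12.1 to 14.6 CPM in WT and 61.4 to 66.1 in TKO. Neuron markers were higher for 2 of 7 and lower for 1, with sums of 205 to 258 CPM in WT and 377 to 396 in TKO. Of all genes, 19.4% were higher and 19.9% lower at D0. The part of these markers in the Hox values was not tested.

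At D2 the members called were again mostly of cluster D. After 2 days of differentiation, 6 tested genes were higher in TKO and 0 were lower, beside 18.4% and 16.9% of all genes, so the share of members called higher was near that of all genes. By edgeR at an unadjusted p under 0.05, 1 gene was lower, and DESeq2 called 0 lower. Of the 7 cluster D genes tested, 5 were called higher (Hoxd1, Hoxd8, Hoxd9, Hoxd11 and Hoxd13), and the calls of Hoxd1, Hoxd8 and Hoxd11 were each lost under at least 1 alternative. The number lower was 1 without WT D2 replicate 2. Over all 39 members, both TKO libraries were above both WT libraries in 17 and below them in 2, and 68.3% of all tested genes did not overlap. Hoxd13 was at 1.47 and 1.69 CPM in WT and 4.56 and 4.97 in TKO (a log2 difference of 1.58 with SE 0.21, adjusted p = 1.49e-05). Endoderm markers were again apart, with 8 of 9 higher in TKO and sums of 18.9 to 21.7 CPM in WT and 239 to 327 in TKO. Lateral plate and extraembryonic mesoderm markers were higher for 7 of 12, with sums of 16.6 to 19.6 CPM in WT and 39.4 to 42.1 in TKO. Neuron markers were higher for 5 of 7, with sums of 286 to 293 CPM in WT and 427 to 468 in TKO, and mesenchyme markers for 3 of 7 tested, with sums of 3.99 to 5.07 and 23.6 to 25.4 CPM. Their part was not tested.

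At D4 Hoxa2, Hoxb2, Hoxa3, Hoxb3 and Hoxb1, then first at high levels, were lower in TKO. Of the 31 tested genes 10 were higher in TKO and 6 lower, beside 15.1% and 13.2% of all genes. The 6 were all from paralogs 1 to 3, with Hoxa2, Hoxa3, Hoxb1, Hoxb2 and Hoxb3 among them, and the 10 were all from paralogs 4 to 13. The number higher was 6 without WT D4 replicate 2. Both TKO libraries were above both WT libraries in 17 of the 39 members and below them in 8, and 64.4% of all tested genes did not overlap. Hoxb1 was at 15.0 and 21.4 CPM in WT and 4.00 and 3.90 in TKO (a log2 difference of -2.20 with SE 0.22, adjusted p = 8.71e-07). Hoxb2 was at 40.6 and 47.2 CPM in WT and 13 and 13.8 in TKO (a log2 difference of -1.72 with SE 0.13, adjusted p = 1.76e-08). Hoxa2 stood at 37.3 and 41.0 CPM in WT and 15.9 and 16.4 in TKO (a log2 difference of -1.28 with SE 0.11, adjusted p = 9.01e-08). In each of these genes both TKO libraries were below both WT libraries.

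Hoxb3 and Hoxa3 had smaller log2 differences at D4. Hoxb3 was at 19.0 and 20.7 CPM in WT and 9.38 and 10.1 in TKO (a log2 difference of -1.03 with SE 0.13, adjusted p = 1.67e-05). Hoxa3, at 18.2 and 19.4 CPM in WT and 13 and 13.4 in TKO, had a log2 fold change of -0.51 with SE 0.17 (adjusted p = 0.0307), and its call was lost under 7 alternatives, DESeq2 and each of the 4 libraries left out among them (adjusted p up to 0.144). The rise from D2 was present in both genotypes: in TKO, 18 of the 31 genes were higher at D4 than at D2 and 2 lower, beside 31.6% and 30.3% of all genes, and 6 of the 18 were paralogs 1 to 3. Hoxb2, for one, rose by 8.72 on the log2 scale in WT and by 7.11 in TKO.

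Several posterior genes were higher in TKO at D4, among them Hoxd9 and Hoxd8, which had been higher at D0 and D2 too. Hoxd9 was at 0.148 and 0.0306 CPM in WT and 1.49 and 2.58 in TKO (a log2 difference of 4.43 with SE 0.48, adjusted p = 2.27e-06). Hoxd8 was at 0.474 and 0.368 CPM in WT and 2.72 and 3.30 in TKO (a log2 difference of 2.82 with SE 0.33, adjusted p = 5.06e-06), and Hoxc13 at 0.947 and 0.337 CPM in WT and 3.2 and 3.80 in TKO (a log2 difference of 2.43 with SE 0.44, adjusted p = 4.88e-04). Hoxb8, a gene of the thoracic trunk, was at 0.651 and 0.398 CPM in WT and 2.06 and 1.62 in TKO (a log2 difference of 1.80 with SE 0.47, adjusted p = 0.00902), a call lost without WT D4 replicate 2 or TKO D4 replicate 1 and with length-scaled counts (adjusted p up to 0.0833). Of 8 pluripotency markers 1 was higher and 1 lower, beside 15.1% and 13.2% of all genes, with sums of 179 to 182 CPM in WT and 163 to 217 in TKO. Neuron markers were higher for 5 of 7 and lower for 1 in TKO. Their sums ran the other way, at 341 to 356 CPM in WT and 247 to 258 in TKO. Neural crest markers were higher for 6 of 8, with sums of 23.3 to 24.2 CPM in WT and 50.2 to 50.3 in TKO. Endoderm markers were higher for 8 of 9, with sums of 4.41 to 5.21 CPM in WT and 23.6 to 27 in TKO. Their part was not tested.

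At D6 Hoxa2, Hoxa3 and Hoxb1 to Hoxb3 were lower and most genes of paralogs 4 to 13 that were tested were higher in TKO. In TKO 20 of the 31 tested genes were higher and 6 lower, beside 20.9% and 20.3% of all genes. Over all 39 members, 26 had both TKO libraries above both WT libraries, 6 had both below, and 7 overlapped, beside 68.2% of all tested genes that did not overlap. The 6 again included Hoxa2, Hoxa3 and Hoxb1 to Hoxb3, and all 6 kept the call under every alternative run at an adjusted p of 0.05. The 20 were 11 of paralogs 4 to 8, 8 of paralogs 9 to 13 and Hoxd3, and 15 of them did so. The median log2 fold change was -1.29 over the 8 tested genes of paralogs 1 to 3, 2.95 over 12 of paralogs 4 to 8 and 4.21 over 11 of paralogs 9 to 13, and 0.00 over all genes. With members at 0 counts set to their lower bound, the last of these class medians was 3.63. These medians are over the members that passed the filter.

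Hoxb8 was the posterior gene with the highest level. It stood at 2.85 and 1.46 CPM in WT and 15.2 and 18.1 in TKO at D6 (a log2 difference of 2.94 with SE 0.36, adjusted p = 5.34e-06). Per length it was at 14.7 and 16.1 TPM in TKO, below Hoxa2 at 19.9 and 21.3 TPM and above Hoxb2 at 6.69 and 9.66 TPM in both libraries. In WT it was at 2.62 and 0.993 TPM, below both of those genes. Hoxb7, its neighbour in the cluster, was at 0.242 and 0.265 CPM in WT and 3.19 and 3.47 in TKO (a log2 difference of 3.70 with SE 0.44, adjusted p = 2.98e-06). For both genes the TKO D6 libraries stood above all other libraries.

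Cluster D gave the largest fitted differences at D6 among members with at least 1 CPM in a group, though on few WT counts. The WT D6 libraries held 7 and 1 counts of Hoxd8, 3 and 2 of Hoxd9 and 2 and 3 of Hoxd13, so the size of these differences is uncertain. Hoxd8 was at 0.212 and 0.0331 CPM in WT and 5.48 and 6.77 in TKO (a log2 difference of 5.56 with SE 0.39, adjusted p = 4.58e-09). Hoxd9 was at 0.0909 and 0.0662 CPM in WT and 3.27 and 3.37 in TKO (a log2 difference of 5.32 with SE 0.48, adjusted p = 1.03e-07), and Hoxd13 at 0.0606 and 0.0993 CPM in WT and 1.51 and 2.07 in TKO (a log2 difference of 4.42 with SE 0.36, adjusted p = 3.69e-08). In WT, Hoxd13 had fallen from 1.27 and 1.41 CPM at D4, a log2 change of -4.02 with SE 0.38 (adjusted p = 9.50e-08). Hoxc9, a thoracic gene, was at 0.303 and 0.165 CPM in WT and 3.91 and 5.02 in TKO (a log2 difference of 4.21 with SE 0.36, adjusted p = 5.74e-08). Hoxd8, Hoxd9 and Hoxd13 were the members higher in TKO at all 5 days.

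Several D6 calls rested on WT groups with almost no counts. Hoxa10 had 0 counts in WT and 30 in TKO, which is at least 10.0-fold higher with the WT group set at 3 counts. Hoxc6 had 1 count in WT and 37 in TKO, a ratio of 37.1-fold (95% interval 6.26 to 1505). Hoxa13 had 1 and 28 counts (28.1-fold, 95% interval 4.64 to 1149), and Hoxb13 had 1 and 23 (23.1-fold, 95% interval 3.75 to 951). Hoxb5 and Hoxc5 each had 3 counts in WT and 26 in TKO. The intervals are exact and cover counting error only, and 3 counts in a group of 2 libraries come to 0.0438 to 0.0554 CPM. The calls of Hoxa10, Hoxb5, Hoxb13, Hoxc5 and Hoxd3 were each lost under at least 1 alternative.

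The 6 anterior genes that were lower at D4 were lower at D6 too. Hoxb2 was at 60.1 and 61.3 CPM in WT and 6.17 and 8.91 in TKO (a log2 difference of -3.02 with SE 0.13, adjusted p = 7.67e-12). Hoxa2 was at 100 and 85.7 CPM in WT and 18.6 and 19.9 in TKO (a log2 difference of -2.27 with SE 0.10, adjusted p = 1.40e-11). Hoxb3 was at 19.5 and 17.0 CPM in WT and 5.74 and 7.09 in TKO (a log2 difference of -1.51 with SE 0.14, adjusted p = 1.44e-07), and Hoxa3 at 23.2 and 16.5 CPM in WT and 8.69 and 10.3 in TKO (a log2 difference of -1.07 with SE 0.17, adjusted p = 8.81e-05). Hoxb1 was at 0.485 and 0.596 CPM in WT and 0.174 and 0.140 in TKO. In these 5 genes both TKO libraries lay below both WT libraries. Between D4 and D6 Hoxb2 rose by 0.47 on the log2 scale in WT and fell by 0.84 in TKO. Over that step 12 of the 31 genes were higher and 8 lower in TKO, beside 24.7% and 23.4% of all genes, and 9 of the 12 were paralogs 4 to 8. The number higher was 6 without TKO D6 replicate 2.

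Cell-type markers also differed at D6, when 20.9% of all genes were higher and 20.3% lower in TKO. Neural progenitor markers were higher for 1 of 8 and lower for 5 in TKO. All 8 trophoblast markers were higher in TKO, with sums of 13.5 to 14 CPM in WT and 48.0 to 50.8 in TKO. Of 8 pluripotency markers 7 were higher and 1 lower, with sums of 25.1 to 28.0 CPM in WT and 136 to 180 in TKO, and 6 of 7 neuron markers were higher, with sums of 695 to 768 CPM in WT and 1105 to 1415 in TKO. Endoderm markers were higher for 8 of 9, with sums of 6.25 to 9.85 CPM in WT and 38.5 to 49.3 in TKO. Of the 12 markers of primitive streak, caudal epiblast and neuromesodermal progenitors, 10 were tested, and 1 was higher and 1 lower. Their sums were 18.3 to 18.7 CPM in WT and 17.6 to 22.9 in TKO, 7 of the 12 were under 1 CPM in both TKO D6 libraries, and Msgn1 was at 0. Lateral plate and extraembryonic mesoderm markers were higher for 7 of 12 and lower for 1, with sums of 22.6 to 26.1 CPM in WT and 40.7 to 51.7 in TKO. Neural crest markers were higher for 5 of 8 and lower for 1, and mesenchyme markers for 3 and 2 of 7 tested. The part of these markers in the Hox values was not tested.

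**Figure D4:**
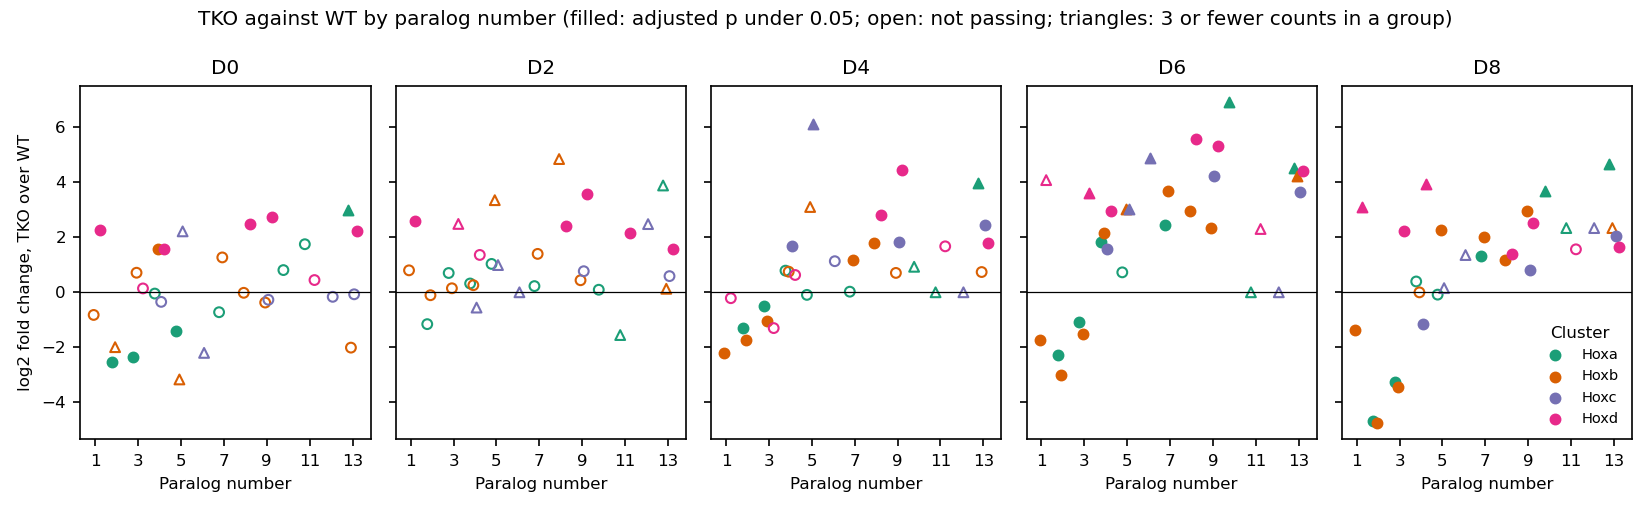
Log2 fold change of TKO over WT for 30 of the tested Hox genes at each day, against paralog number and coloured by cluster; filled symbols passed an adjusted p of 0.05, and triangles have 3 or fewer counts in WT or TKO, so that their fitted value is no measure of size. At D4, D6 and D8 paralogs 1 to 3 of clusters A and B lie below 0.

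At D8 Hoxa2, Hoxb2, Hoxa3 and Hoxb3 were at low levels in TKO and not in WT. Of the 31 tested genes 15 were higher and 7 lower in TKO, beside 35.8% and 31.8% of all genes. In either direction that is 22 of 31, near the 67.5% of all genes, and the share called lower was below that of all genes. The number higher was 9 without TKO D8 replicate 1. Both TKO libraries were above both WT libraries in 19 of the 39 members and below them in 7, beside 86.1% of all tested genes that did not overlap. The share of the 39 without overlap was thus below that of all tested genes. Hoxb2 was at 43.1 and 41.3 CPM in WT and 1.33 and 1.78 in TKO (a log2 difference of -4.75 with SE 0.17, adjusted p = 1.34e-13). Hoxa2 was at 61.1 and 61.2 CPM in WT and 2.38 and 2.36 in TKO (a log2 difference of -4.69 with SE 0.13, adjusted p = 1.23e-14). Hoxb3 was at 27.5 and 21.9 CPM in WT and 2.13 and 2.36 in TKO (a log2 difference of -3.46 with SE 0.16, adjusted p = 3.31e-12), and Hoxa3 at 15.8 and 15.8 CPM in WT and 1.68 and 1.59 in TKO (a log2 difference of -3.27 with SE 0.21, adjusted p = 3.21e-10). In these 4 genes every TKO library was below every WT library. Hoxb1 and Hoxc4 were also among the 7. Hoxb1 missed the threshold without TKO D8 replicate 2 (adjusted p = 0.0504), and Hoxc4 without TKO D8 replicate 2, without WT D8 replicate 2 and with DESeq2 (adjusted p up to 0.264).

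Of the 15 genes higher in TKO at D8, 6 were paralogs 4 to 8, 7 were paralogs 9 to 13 and 2 were the anterior genes Hoxd1 and Hoxd3. Hoxd1 had 2 counts in WT and 17 in TKO (9.51-fold, 95% interval 2.26 to 84.9), and Hoxd3 was at 0.142 and 0.0599 CPM in WT and 0.559 and 0.429 in TKO. Their calls were lost under 2 and 6 alternatives (adjusted p up to 0.0908 and 0.219). Hoxb8 was at 1.54 and 1.23 CPM in WT and 3.43 and 2.79 in TKO (a log2 difference of 1.16 with SE 0.39, adjusted p = 0.0147), a call lost without WT D8 replicate 2 or TKO D8 replicate 1 (adjusted p up to 0.0889). Hoxb9, a thoracic gene, was at 0.228 and 0.120 CPM in WT and 1.29 and 1.47 in TKO (a log2 difference of 2.96 with SE 0.40, adjusted p = 4.15e-06). In both genes the TKO libraries were above the WT libraries. Hoxc13 stood at 0.398 and 0.210 CPM in WT and 1.15 and 1.41 in TKO (a log2 difference of 2.06 with SE 0.55, adjusted p = 0.00301). Hoxd13 was at 0.711 and 0.779 CPM in WT and 2.45 and 2.27 in TKO (a log2 difference of 1.66 with SE 0.24, adjusted p = 6.49e-06), and Hoxd8 at 0.484 and 0.479 CPM in WT and 1.19 and 1.32 in TKO (a log2 difference of 1.37 with SE 0.34, adjusted p = 0.00185).

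Cell-type markers were far apart at D8. All 8 pluripotency markers were higher in TKO, with sums of 30.3 to 49.7 CPM in WT and 1011 to 1098 in TKO, against 5043 to 5172 in TKO at D0. All 8 neural progenitor markers and all 7 neuron markers were lower, with progenitor sums of 2024 to 2068 CPM in WT and 918 to 919 in TKO and neuron sums of 3337 to 3376 CPM in WT and 880 to 884 in TKO. Markers of primitive streak, caudal epiblast and neuromesodermal progenitors were higher for 4 of 10 tested and lower for 3. These shares were near the 35.8% and 31.8% of all genes. Their sums were 23.8 to 25.1 CPM in WT and 28.1 to 36.5 in TKO. From D6 to D8 in TKO 6 of the 10 rose and 1 fell, beside 25.5% and 24.5% of all genes. Trophoblast markers were higher for 5 of 8, with sums of 39.2 to 41.7 CPM in WT and 65.4 to 69.9 in TKO. Their part in the D8 Hox values was not tested. Without the D8 libraries in the fit, the D6 counts were 20 higher and 6 lower, as with them.

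From D6 to D8 in TKO, anterior and posterior genes fell. Of the tested genes, 20 were lower at D8 than at D6 and 2 higher, beside 24.5% and 25.5% of all genes. Of the 20, 5 were paralogs 1 to 3, 10 were paralogs 4 to 8 and 5 were paralogs 9 to 13. Hoxa2 fell by 3.02 on the log2 scale (adjusted p = 4.08e-11), Hoxb8 by 2.42 (adjusted p = 2.08e-05) and Hoxd9 by 2.66 (adjusted p = 8.26e-06). The 2 that rose were Hoxb9, from 0.377 and 0.456 to 1.29 and 1.47 CPM, and Hoxd11, whose call was lost under 4 alternatives. Either TKO D6 replicate 2 or TKO D8 replicate 1 left out brought the number that rose to 1.

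The test of the difference between the genotypes gave 12 genes whose log2 change from D6 to D8 was lower in TKO than in WT, beside 24.4% of all genes in that direction. In the other direction edgeR called 0 genes, beside 25.5% of all genes, with 0 at an unadjusted p under 0.05 and 0 by DESeq2. Hoxd8 had the largest value, at -4.18 with SE 0.57 (adjusted p = 8.03e-06) on the log2 scale, with WT going from 0.212 and 0.0331 to 0.484 and 0.479 CPM and TKO from 5.48 and 6.77 to 1.19 and 1.32 CPM. Hoxa2, Hoxb2, Hoxa3 and Hoxb3 were among the 12, with Hoxa2 at -2.42 with SE 0.17 (adjusted p = 6.10e-09).

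From D0 to D8, TKO cells ended with 10 tested genes higher and 7 lower, beside 34.2% and 30.8% of all genes. Leaving out any 1 of the 4 TKO libraries of D0 and D8 brought the number lower to 4. Hoxb8 ended higher than it began in both genotypes, at 0.0348 and 0.256 CPM at D0 and 3.43 and 2.79 at D8 in TKO. The change from D0 to D8 was greater in TKO than in WT for 4 genes (Hoxa7, Hoxa10, Hoxb9 and Hoxc13) and less for 3 (Hoxa2, Hoxb3 and Hoxb4), beside 29.3% and 22.9% of all genes. Both shares of the members were below those of all genes. Hoxb9 had the largest positive difference, 3.33 with SE 0.52 (adjusted p = 3.56e-05), and Hoxb3 the largest negative one, -4.17 with SE 0.70 (adjusted p = 7.64e-05). The number greater in TKO was 2 without WT D8 replicate 2, and the number less was 1 without WT D0 replicate 1 or without TKO D0 replicate 2.

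Hoxd3 and Hoxd4 have to be read with the gene Gm28230, annotated as a read-through transcript at the same place, with which they share sequence. Gm28230 had 0 counts in all 10 WT libraries and in TKO at D0 and D2, and stood at 0 and 0.0661 CPM in TKO at D4, 1.68 and 1.79 at D6 and 0.350 and 0.490 at D8. It was detected in no WT library and in both TKO libraries at D6 and D8. Hoxd4 itself was at 0.0909 and 0.298 CPM in WT and 0.927 and 2.14 in TKO at D6 (a log2 difference of 2.96 with SE 0.50, adjusted p = 1.43e-04), and Hoxd3 had 3 counts in WT and 38 in TKO (12.7-fold, 95% interval 4.03 to 64.4). How the authors' counting divided reads among these 3 genes is uncertain. Leaving Hoxa2, Hoxd3 and Hoxd4 out, 18 members were higher and 5 lower at D6.

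Several members have more than 1 transcript. In Hoxb8 at D6 in TKO, Hoxb8-201 held 8.31 and 10.7 TPM and Hoxb8-203 5.00 and 4.04 TPM. In Hoxb3 at D8 in WT, the main transcript Hoxb3-202 held 17.3 and 14 TPM, most of the gene's 20.6 and 16.6. In the TKO against WT comparisons 10 members had no call at any day: the 8 that were not tested, Hoxa11 and Hoxc12. No member was lower in TKO at all 5 days, and 6 were lower and 8 higher at each of D4, D6 and D8.

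Most of the genes for Hox cofactors were lower in TKO at D8. Of the 9 Pbx, Meis and Pknox genes, 2 were lower at D4, 5 at D6 and 8 at D8, with 0, 1 and 0 higher at those days. Of all genes, 13.2%, 20.3% and 31.8% were lower at D4, D6 and D8. Their summed level in WT was 165 to 169 CPM at D0 and 1240 to 1264 at D8, and in TKO it was 127 to 130 at D0, 646 to 699 at D6 and 409 to 419 at D8. Meis1 was at 153 and 159 CPM in WT and 24.9 and 26.1 in TKO at D8 (a log2 difference of -2.61 with SE 0.09, adjusted p = 8.54e-14), while at D4 its value was -0.06 and did not pass. Meis2 was at 453 and 471 CPM in WT and 74.2 and 79.2 in TKO (a log2 difference of -2.59 with SE 0.10, adjusted p = 5.55e-13), and Meis3 at 63.9 and 63.2 CPM in WT and 19.6 and 21.3 in TKO (a log2 difference of -1.63 with SE 0.12, adjusted p = 1.52e-09).

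Of the 18 genes of retinoic acid synthesis, breakdown and reception, 3 were higher and 4 lower at D4, 8 and 4 at D6, and 11 and 4 at D8. Beside them, 15.1% of all genes were higher and 13.2% lower at D4, 20.9% and 20.3% at D6, and 35.8% and 31.8% at D8, so the share lower at D8 was below that of all genes. Cyp26b1, an enzyme that breaks retinoic acid down, was at 29.3 and 38.1 CPM in WT and 133 and 141 in TKO at D4 (a log2 difference of 2.02 with SE 0.21, adjusted p = 1.26e-06). It stayed higher at D6 (a log2 difference of 1.67 with SE 0.20, adjusted p = 2.76e-06), with TKO libraries at 230 and 332 CPM above both WT libraries at 63.3 and 113. Crabp1, which binds retinoic acid in the cytoplasm, was at 1152 and 1056 CPM in WT and 643 and 679 in TKO at D4 (a log2 difference of -0.74 with SE 0.09, adjusted p = 5.55e-06). Cyp26a1, another breakdown enzyme, was at 0.542 and 0.845 CPM in WT and 19.9 and 20.7 in TKO at D0 (a log2 difference of 4.86 with SE 0.29, adjusted p = 7.70e-10) and was higher again at D6 (a log2 difference of 2.79 with SE 0.27, adjusted p = 3.21e-07). Rarg, a retinoic acid receptor, was at 5.12 and 3.65 CPM in WT and 64.6 and 59.3 in TKO at D8 (a log2 difference of 3.81 with SE 0.18, adjusted p = 6.96e-12).

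Of 10 hindbrain segmentation genes, 7 were lower and 1 higher in TKO at D4, beside 13.2% and 15.1% of all genes. Egr2, which marks the third and the fifth rhombomeres, was at 2.96 and 7.26 CPM in WT and 0.372 and 0.396 in TKO (a log2 difference of -3.72 with SE 0.50, adjusted p = 2.33e-05). At D6 the split was 4 higher and 4 lower, beside 20.9% and 20.3% of all genes, and at D8 it was 3 and 3, near the 35.8% and 31.8% of all genes. The summed level of the 10 was lower in TKO at all 3 days. At D4 it was 324 to 358 CPM in WT and 220 to 221 in TKO. At D6 it was 314 to 344 and 212 to 226 CPM, and at D8 338 to 339 and 97.0 to 98.8 CPM. Of 18 forebrain and midbrain factors, which mark the brain in front of the Hox domain, 9 were higher and 1 lower at D6, and 6 and 6 at D8, the latter again near the shares of all genes.

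At D6 Cdx2 was under 1 CPM in all 4 libraries, while the Cdx and other ParaHox genes together stood higher in TKO. Over these 6 genes, 4 were tested, of which 1 was higher and 0 lower at D6, when 41.3% of all genes were called in either direction. The 6 summed to 0.970 to 1.03 CPM in WT and 3.10 to 4.25 in TKO at D6. At D2 the sums were 3.83 to 3.96 and 9.91 to 10.2 CPM. TKO was lower at D0 (3.83 to 4.39 and 2.16 to 2.23) and at D8 (16.8 to 19.4 and 7.45 to 7.60), and overlapped WT at D4. These sums take in Gsx1, Gsx2 and Pdx1 as well as Cdx genes, and their part in the Hox values was not tested. Cdx2 was at 0.424 and 0.265 CPM in WT and 0.521 and 0.386 in TKO at D6 (a log2 difference of 0.40 with SE 0.41, adjusted p = 0.480), and at 0.853 and 0.899 CPM in WT and 2.48 and 2.63 in TKO at D8 (a log2 difference of 1.54 with SE 0.31, adjusted p = 3.13e-04). Of 25 Polycomb genes 7 were higher and 5 lower at D6, with a median log2 fold change of -0.03. Of 11 Trithorax and H3K27 demethylase genes 4 were higher and 2 lower, with a median of 0.12. Of all genes, 20.9% were higher and 20.3% lower at D6, so the shares lower in both lists were near that of all genes. Ezh2, the Polycomb methyltransferase, was at 221 and 244 CPM in WT and 240 and 252 in TKO (a log2 difference of 0.08 with SE 0.05, adjusted p = 0.238).

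**Figure D5:**
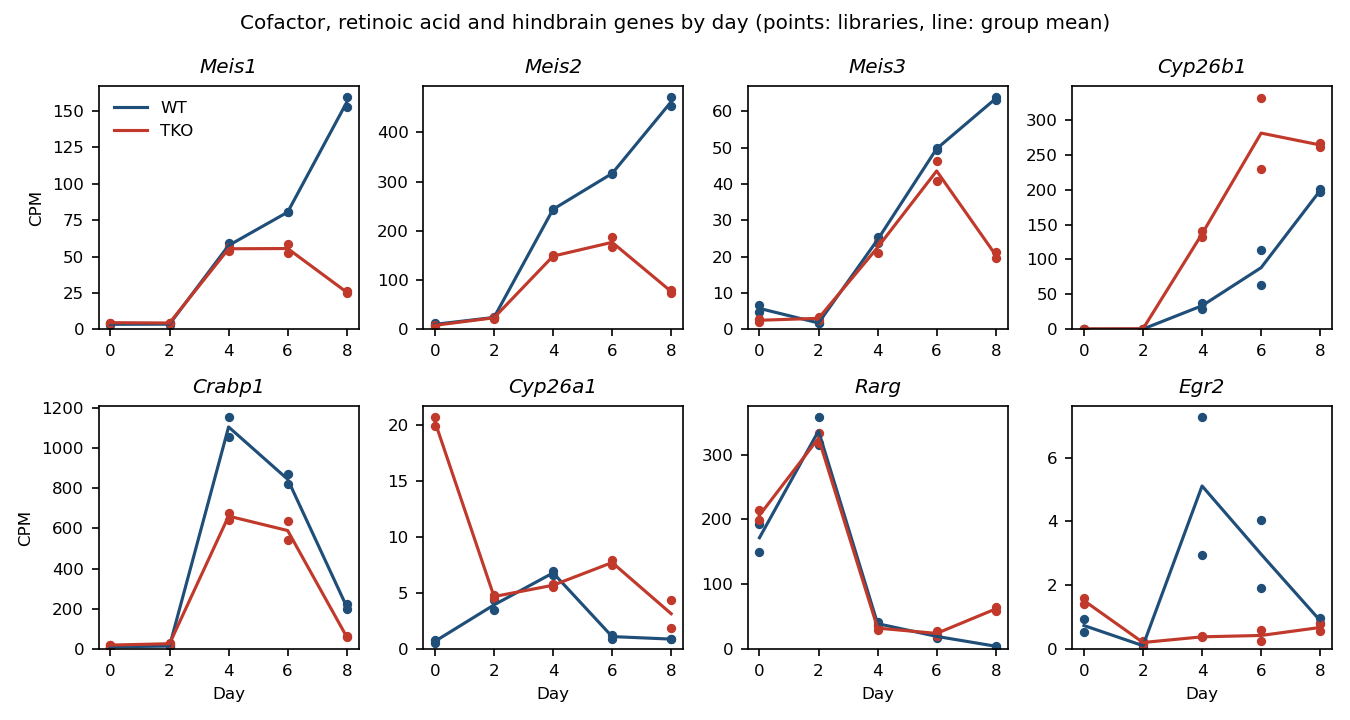
CPM by day of 3 Hox cofactors (Meis1, Meis2, Meis3), 4 retinoic acid genes (Cyp26b1, Crabp1, Cyp26a1, Rarg) and the hindbrain gene Egr2, with a linear axis of its own for each gene; points are libraries, lines join group means, WT is blue and TKO is red. The cofactors are near each other in the 2 genotypes at D4 except Meis2, and apart at D8, while Cyp26b1 is higher in TKO from D4.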

How the data were processed

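Bulk poly(A) RNA-seq of WT and TKO E14 cells at 5 days was analysed from 1 transcript table per library. Per the labels' protocols the libraries were made with a stranded mRNA kit. Per the submitters' processing notes, Trim Galore 0.6.2 and kallisto were used, with builds GRCm38 and mm10. Whether the counting used strand is not given in the sources used here. The authors deposited estimated counts and TPM values per transcript. Of 119414 transcripts 116728 matched GENCODE M21. The 2686 unmatched held 0.943% to 1.10% of counts and were left out.

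Each gene took the sum of its transcripts' estimated counts, as whole numbers after rounding. TMM scaling, a low-count filter (18555 genes) and edgeR 4.0.16 quasi-likelihood tests in 1 fit of all 20 libraries and 10 groups followed (R 4.3.3, limma 3.58.1), with Benjamini-Hochberg adjustment over all genes tested and a threshold of 0.05. There were 10 residual degrees of freedom. The SE is the size of the log2 fold change divided by the square root of F. CPM is TMM-scaled, and deposited TPM was summed per gene. Scripts ran in Python 3.11.15 with pandas 2.3.3 and were tested on simulated data. DESeq2 1.42.0 was an alternative. Groups came from the labels, and alternatives are in the closing section.

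Named members were the 8 with the highest TPM in any group and, per TKO against WT comparison, up to 4 highest and 4 lowest past the threshold with 1 CPM or more in a group. List genes were the 3 with the largest change and 5 CPM or more. Some genes that these rules name are not reported here. Others named were chosen after their values were seen. Members, lists and markers were chosen with earlier results of these data known.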

Additional observations from a re-analysis of the deposited data

Results flagged for a closer look

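In these Hox genes the change over time differed between TKO and WT by the interaction term of the edgeR fit, with adjusted p under 0.05 over all genes tested. Over D0 to D8, the shares of the 31 tested members called greater and lower in TKO were below the 29.3% and 22.9% of all genes. From D0 to D8 the log2 change was greater in TKO for Hoxa7 (by 2.04), Hoxa10 (2.89), Hoxb9 (3.33) and Hoxc13 (2.13). Hoxa10 had 0 and 2 counts in the WT D8 libraries, so its fitted value is no measure of size. Of these only Hoxb9 kept the call under every alternative run at that threshold. The log2 change was lower in TKO for Hoxa2 (by -2.17), Hoxb3 (-4.17) and Hoxb4 (-1.58), and Hoxb3 kept the call under every alternative while Hoxa2 and Hoxb4 did not.

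From D6 to D8 the difference was negative in 12 of the 31 tested genes, both anterior and posterior, beside 24.4% of all genes. Among paralogs 1 to 3 it was -2.42 for Hoxa2, -2.20 for Hoxa3, -1.73 for Hoxb2 and -1.94 for Hoxb3. In the middle of the clusters it was -1.43 for Hoxa4, -2.17 for Hoxb4, -1.78 for Hoxb8, -2.72 for Hoxc4 and -4.18 for Hoxd8. In paralogs 9 to 13 it was -3.41 for Hoxc9, -2.80 for Hoxd9 and -2.76 for Hoxd13. Hoxd13 was not called lower at D8 in TKO, where it went from 1.51 and 2.07 to 2.45 and 2.27 CPM. In WT it went from 0.0606 and 0.0993 to 0.711 and 0.779 CPM. The WT D6 libraries held 7 and 1 counts of Hoxd8, 3 and 2 of Hoxd9 and 2 and 3 of Hoxd13. The size of these 3 values is therefore uncertain. The calls of Hoxa4, Hoxb8 and Hoxd9 were each lost under at least 1 alternative. Both D8 groups enter all of these values, and pluripotency, progenitor and neuron markers differed between those groups, whose part was not tested.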

How the results depend on the processing

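Of 316 recomputed counts of Hox genes other than those with 1 library left out, 286 stayed within 1.5 times the reported count, and of 600 with 1 library left out 562 did. Of 4259 recomputed values of single genes none changed direction with a call, 76 lost a call and 44 gained one. At an adjusted p under 0.01 the counts were 9 higher for TKO against WT at D8, 8 lower for WT D8 against D0, 4 lower for TKO D8 against D0, 1 higher for TKO D8 against D6, 0 lower for WT D4 against D2, 7 lower for WT D6 against D4, 1 lower for TKO D4 against D2, and 1 greater and 1 less for the difference between genotypes from D0 to D8. With the compared groups fitted alone they were 5 lower for WT D8 against D0, 1 higher for TKO D8 against D6, 0 lower for WT D4 against D2, 7 lower for WT D6 against D4 and 1 lower for TKO D4 against D2. Length-scaled TPM as counts gave 2 higher for WT D8 against D6, 1 higher for TKO D8 against D6, 1 lower for WT D4 against D2 and 1 lower for TKO D4 against D2. Protein-coding transcripts alone gave 1 higher for TKO D8 against D6, 2 greater for the difference from D0 to D8, 1 lower for WT D4 against D2 and 1 lower for TKO D4 against D2. DESeq2 gave 1 higher for TKO D8 against D6 and 1 lower for WT D4 against D2, and leaving out the D8 libraries gave 1 lower for the latter. For WT D8 against D6, 2 were lower with a 2-fold minimum, 2 among members with under 10% of shared 31-base words, and 7 with no low-count filter, and for TKO D6 against D4, 5 were lower with the 2-fold minimum. The cause of these moves was not tested.

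With 1 library left out, the counts higher and lower in TKO ran from 4 to 7 and 3 to 5 at D0, 5 to 7 and 0 to 1 at D2, 6 to 11 and 5 to 6 at D4, 17 to 21 and 6 to 6 at D6, and 9 to 16 and 5 to 7 at D8. They ran from 6 to 8 and 8 to 14 for WT D8 against D0, 8 to 10 and 4 to 8 for TKO D8 against D0, 2 to 5 and 3 to 6 for WT D8 against D6, and 1 to 3 and 18 to 21 for TKO D8 against D6. They ran from 12 to 15 and 0 to 3 for WT D4 against D2, 3 to 4 and 5 to 11 for WT D6 against D4, 14 to 18 and 1 to 2 for TKO D4 against D2, and 6 to 13 and 6 to 8 for TKO D6 against D4. For the difference between genotypes they ran from 2 to 6 and 1 to 4 from D0 to D8, and 0 to 0 and 9 to 14 from D6 to D8. The lower count of WT D4 against D2 was 0 without WT D4 replicate 2.

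Same-numbered replicates did not deviate together: over 45 pairs of groups the correlation of their deviations ran from -0.0413 to 0.0527, with a median of 0.00774. With the replicate number as a block, 20 genes were higher and 6 lower at D6, and 1 was lower for WT D4 against D2. Depth limits the weakest members, since 8 of the 39 had too few counts to be tested.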
